A study of Mus musculus with 8 samples.

Results

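The genes described here are 10 regulators of the passage from G1 to S phase. They were taken as a list by gene symbol, namely the D-type cyclins Ccnd1, Ccnd2 and Ccnd3, the E-type cyclins Ccne1 and Ccne2, the CDK inhibitors Cdkn1a, Cdkn1b and Cdkn2c, and the pocket protein and transcription factor pair Rb1 and E2f1. All 10 were among the 20308 gene symbols of the count files, and all 10 passed the filter on low counts that left 13407 genes to be tested. RNA was measured in CD11b+ cells, an enrichment of microglia with magnetic beads, from the right brain hemisphere of mice aged p14 or p15. The CSF1 OE mice carried a transgene for the secreted form of CSF1, driven through the TRE/tTA system in a subset of GFAP+ cells, and the other group was controls for this overexpression. Both groups were F1 mice of C57Bl/6 and CD1. Each group had 4 mice with 1 library per mouse, and the mice are named here by their animal numbers, 1827, 1872, 1874 and 1934 for controls and 1931, 1932, 1936 and 2019 for CSF1 OE. Whether the control mice carried 1 of the transgenes is not given in the sources used here.

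CSF1 is a growth factor for microglia that acts through the receptor CSF1R. In dividing cells, D-type cyclins join CDK4 or CDK6 and begin to phosphorylate the retinoblastoma protein RB, and E-type cyclins with CDK2 complete it. RB that is not phosphorylated holds E2F factors in check, and once released, E2F1 and its relatives switch on genes for DNA replication, with the E-type cyclin genes and E2f1 itself among their targets. INK4 inhibitors such as p18 (Cdkn2c) bind CDK4 and CDK6, while p21 (Cdkn1a) and p27 (Cdkn1b) act mainly on the cyclin E and CDK2 complexes. Much of this control acts on the proteins and their phosphorylation, which RNA does not show.

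The libraries held from 12053259 to 15475465 counts. Summed CPM (counts scaled to the library total after TMM normalization) of 10 microglia markers ran from 22160 to 38577 in control mice and from 28563 to 39746 in CSF1 OE mice, so the labelled cell type was borne out by its markers, while the T, NK and B cell markers summed to at most 2.57 CPM in any mouse. Control mouse 1934 stood apart, with the lowest microglia marker sum and the highest sums of endothelial and mural markers (1362 CPM), oligodendrocyte lineage markers (5710 CPM) and neuron and neural progenitor markers (505 CPM). CSF1 OE mouse 2019 was at the other end, with the highest microglia sum and the lowest sums of these 3 lists. CSF1 OE mouse 2019 also had the highest sum of monocyte and neutrophil markers, 149 CPM against at most 86.3 in any other mouse. All 6 border macrophage markers, all 10 endothelial and mural markers, all 8 neuron and neural progenitor markers and all 4 tested choroid plexus and ependyma markers had lower means in CSF1 OE mice. An unadjusted p under 0.05 was found for 5, 2, 0 and 0 of them, and edgeR called 0, while DESeq2 called Cd163 of the border macrophage list and Ly6c1 of the endothelial list. The other lists did not fall as a whole. Higher and lower were 3 and 3 astrocyte, 2 and 8 oligodendrocyte lineage, and 2 and 3 monocyte and neutrophil markers. The 1 tested T, NK and B cell marker was higher. Of the microglia markers 5 were higher and 5 lower, and DESeq2 called Aif1 (higher) and Fcrls (lower). Over all genes tested, 7405 of 13407 were lower, and 6.44% were lower at an unadjusted p under 0.05 in edgeR. Csf1 ran from 139 to 364 CPM in control mice and from 167 to 400 CPM in CSF1 OE mice (adjusted p = 0.796, edgeR), which does not check the labels because the transgene is expressed in GFAP+ cells.

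Per length, the D-type cyclin Ccnd1 and the inhibitor Cdkn1a were the most abundant of the 10 genes in control mice. Ccnd1 was at 31.9 ± 5.10 and Cdkn1a at 31.0 ± 8.27 CPM per kb of annotated exons (SD, n = 4 here and for every mean below), and their ranges over mice overlapped. Rb1 (15.8 ± 1.49) and Cdkn1b (12.8 ± 1.304) came next and also overlapped each other. Ccnd3 (6.02 ± 0.333), E2f1 (5.72 ± 1.32), Ccnd2 (5.26 ± 2.39) and Cdkn2c (3.92 ± 0.913) formed the next tier of neighbours with overlapping ranges. The E-type cyclins were lowest, with Ccne2 at 1.71 ± 0.395 and Ccne1 at 1.40 ± 0.443 CPM per kb, again overlapping. No mouse of one tier reached the range of the next, as the lowest Cdkn1a value (24.2) was above the highest Rb1 value (17.2), the lowest Cdkn1b value (11.5) above the highest Ccnd2 value (8.63), and the lowest Ccnd2 value (3.23) above the highest Ccne2 value (2.25). With the length of the longest transcript instead, Cdkn1a stood above Ccnd1, Ccnd3 above Cdkn1b and Ccnd2 above E2f1, and the highest Ccnd2 value (12.8) reached the range of Cdkn1b.

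The question put to the 10 genes was whether they differed between CSF1 OE and control mice. None of the 10 was called, where a call was a Benjamini-Hochberg adjusted p below 0.05 in edgeR's quasi-likelihood test together with a fold change below 0.7 or above 1.43. Over all genes tested, 59 (0.44%) were called. An unadjusted p under 0.05 was found for 4 of the 10 genes, against 16.5% of all genes tested, with higher means in CSF1 OE mice for Ccne1, Cdkn2c and E2f1 and a lower mean for Ccnd3. Ccne1 alone had no overlap between the genotypes, against 10.3% of all genes, and DESeq2, which called 430 genes (2.55%), called 1 of the 10, Ccne1. On simulated data DESeq2 gave 17% false calls and edgeR 4.88%, which bears on every DESeq2 call given here. On the deposited normalized values limma called 0 of the 10. The log2 fold changes of the 10 genes had a median of 0.10, against -0.034 over all genes tested, with 6 genes higher and 4 lower. In bulk RNA, a different share of cells of a type and a different amount of RNA per cell cannot be told apart.

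**Figure D1:**
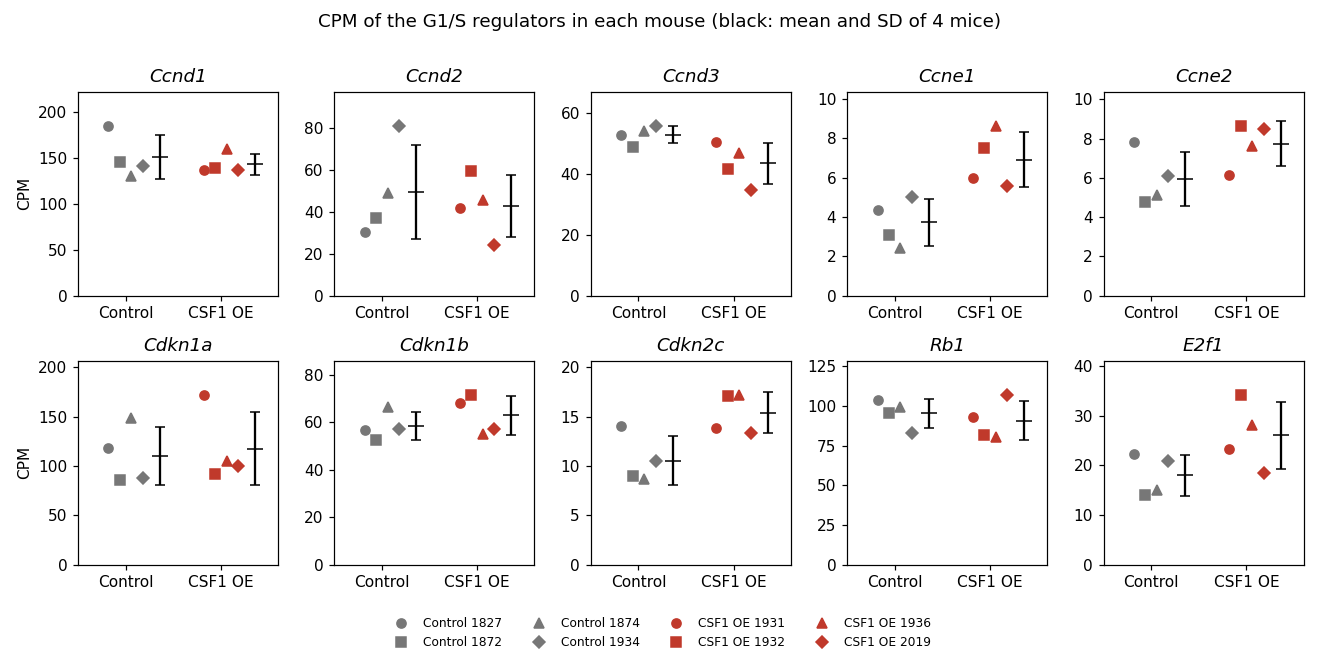
Level of each of the 10 genes in every mouse, in CPM on a linear axis from 0, with grey symbols for control mice and red symbols for CSF1 OE mice. Black bars give the mean and SD of 4 mice. For Ccne1 the 4 CSF1 OE mice (5.57 to 8.65 CPM) all lie above the 4 control mice (2.42 to 5.02 CPM), while the genotypes overlap for the 9 other genes.

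The E-type cyclins both had higher means in CSF1 OE mice, and Ccne1 had the largest estimate of the 10 genes. Ccne1, which encodes cyclin E1, was at 4.36, 3.11, 2.42 and 5.02 CPM in control mice 1827, 1872, 1874 and 1934, and at 5.99, 7.49, 8.65 and 5.57 CPM in CSF1 OE mice 1931, 1932, 1936 and 2019. Every CSF1 OE mouse was above every control mouse, and controls 1827 and 1934 were the closest to them. The means were 3.73 ± 1.18 and 6.93 ± 1.41 CPM, a log2 fold change of 0.89 ± 0.27 (SE; 95% interval 0.29 to 1.49, adjusted p = 0.161 and unadjusted p = 0.00878, edgeR). The counts behind these values were from 32 to 127 per library, far above the 3 counts that a count of 0 allows, and the expected counts were whole in all 8 libraries. Ccne1 is among the genes that the study lists as different in these same libraries, so its direction here is not independent of that choice. The difference was the same in direction in all 16 alternative analyses, with log2 fold changes from 0.65 to 1.08, unadjusted p under 0.05 in each and adjusted p from 0.0372 to 0.357.

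Ccne1 lies on the minus strand of chromosome 7 (GRCm38, chr7:38097984-38107534) and is protein coding with 5 annotated transcripts. The DNA upstream of Ccne1 is shown because this is the member with the largest difference, and that of Cdkn1b because it is the gene with such a sequence whose interval stayed inside the fold thresholds. Both are from RefSeq (GRCm38.p6) and stop before the first base of the gene as GENCODE places it, for Ccne1 at chr7:38107535-38107740 on the minus strand, where RefSeq starts the gene 44 bases further on, and for Cdkn1b, where both starts are the same base, at chr6:134920151-134920400 on the plus strand. Capitals mark the GC box GGGCGG, searched on both strands, so that CCGCCC is the same motif read on the other strand.
Ccne1: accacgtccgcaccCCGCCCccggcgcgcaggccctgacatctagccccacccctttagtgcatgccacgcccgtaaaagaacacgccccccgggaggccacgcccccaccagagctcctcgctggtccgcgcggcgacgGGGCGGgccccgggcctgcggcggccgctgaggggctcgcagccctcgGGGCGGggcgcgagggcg
Cdkn1b: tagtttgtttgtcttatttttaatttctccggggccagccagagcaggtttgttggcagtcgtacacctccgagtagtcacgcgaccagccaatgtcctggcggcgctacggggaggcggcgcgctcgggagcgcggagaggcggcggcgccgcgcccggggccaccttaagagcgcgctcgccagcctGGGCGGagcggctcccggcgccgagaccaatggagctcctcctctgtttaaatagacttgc
The Ccne1 sequence of 206 bases holds 3 GC boxes and that of Cdkn1b, of 250 bases, holds 1. Among all 32851 RefSeq windows of 300 bases, 35.7% hold a GC box, and 61.2% among windows of genes tested here. These windows are longer than both sequences and reach past the RefSeq start, so the shares are set beside whole windows only. The whole Ccne1 window holds 4 GC boxes and that of Cdkn1b 1. Of the windows of genes tested, 36.6% hold 2 or more. The E2F words TTTCCCGC, TTTCGCGC, TTTGCCGC and TTTGGCGC, searched on both strands, were in neither sequence and in 0 of the 9 windows that RefSeq gives for 6 of the 10 genes, against 2.26% of all windows. These letters are absent from these windows only, and 5 of the 9 windows, those of E2f1 and Cdkn2c among them, lie inside the gene as GENCODE draws it.

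Ccne2, which encodes cyclin E2, was at 7.86, 4.77, 5.14 and 6.08 CPM in the control mice and at 6.16, 8.66, 7.63 and 8.49 CPM in the CSF1 OE mice, in the order of animals given above. Control 1827 lay within the range of the CSF1 OE mice, and the other 3 controls lay below it. The log2 fold change was 0.37 ± 0.21 (95% interval -0.09 to 0.84, adjusted p = 0.400, edgeR), an interval that holds both 0 and folds above 1.43. Of the annotated exon bases of Ccne2, 17.4% also lie in Ints8 on the other strand, which was at 48.8 CPM in controls and 39.9 CPM in CSF1 OE mice. The library kit does not keep the strand, so reads there cannot be assigned by strand.

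The D-type cyclins, the sensors of growth factor signals at the start of G1, had mean levels in CSF1 OE mice at or below those of controls. Ccnd1 (cyclin D1) was at 184.9, 145.8, 129.7 and 141.0 CPM in control mice and at 136.2, 138.8, 159.6 and 136.9 CPM in CSF1 OE mice. The genotypes overlapped, with control 1827 the highest and control 1874 the lowest of the 8. The log2 fold change was -0.07 ± 0.12 (95% interval -0.34 to 0.19, adjusted p = 0.778, edgeR), an interval that does not reach the fold thresholds on either side. Of its exon bases, 23.4% also lie in the gene Oraov1 on the other strand, at 12.9 CPM in controls and 11.2 CPM in CSF1 OE mice.

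Ccnd3 (cyclin D3) was at 52.6, 48.9, 54.1 and 55.7 CPM in control mice and at 50.3, 41.6, 46.7 and 34.7 CPM in CSF1 OE mice. CSF1 OE mouse 1931 lay within the control range and the other 3 lay below it, with mouse 2019 the lowest. The log2 fold change was -0.28 ± 0.12 (95% interval -0.55 to -0.02, unadjusted p = 0.0381, adjusted p = 0.270, edgeR). The sign was the same in all 16 alternatives (-0.42 to -0.17), and the unadjusted p stayed under 0.05 in 10 of them. The estimate nearest 0 was the fit with the mean level of 50 markers of other cell types as a covariate (-0.17, unadjusted p = 0.174, edgeR). Control mouse 1934 had the highest Ccnd3 value. The part of other cells in the Ccnd3 values was not tested further.

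Ccnd2 (cyclin D2) varied more between mice than either of its relatives. It was at 30.4, 37.2, 49.3 and 81.2 CPM in control mice and at 42.1, 59.7, 45.5 and 24.1 CPM in CSF1 OE mice, so that the highest mouse was control 1934 and the lowest was CSF1 OE mouse 2019. The log2 fold change was -0.21 ± 0.34 (95% interval -0.98 to 0.56, adjusted p = 0.781, edgeR). Without control mouse 1934 it was 0.15. The mice at both ends of the Ccnd2 range were also at both ends of the marker sums of other cell types, with 505 CPM of neuron and neural progenitor markers in control 1934 against 64.4 CPM in CSF1 OE mouse 2019, and 1362 against 432 CPM of endothelial and mural markers. With the mean level of 50 markers of other cell types as a covariate, the log2 fold change of Ccnd2 was 0.44 (adjusted p = 0.204), so its direction was not fixed by these data. The part of other cells in the Ccnd2 values was not tested further.

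**Figure D2:**
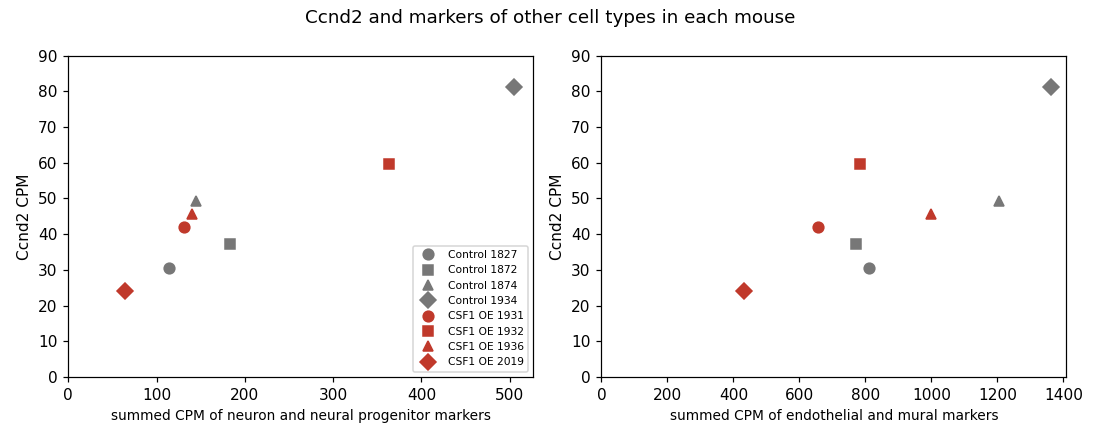
Ccnd2 level (y axis, CPM) against the summed CPM of neuron and neural progenitor markers (left) and of endothelial and mural markers (right), with 1 point per mouse, grey for control and red for CSF1 OE. Control mouse 1934 (81.2 CPM) is the highest point on both axes of both panels and CSF1 OE mouse 2019 (24.1 CPM) the lowest.

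The animal numbers of 1 control (1934) and 3 CSF1 OE mice (1931, 1932 and 1936) lie close together, and no batch is named for them. Within these 4 mice, and likewise within the other 4, every CSF1 OE mouse was below every control for Ccnd2 and Ccnd3. For Ccne1 and Ccne2 every CSF1 OE mouse was above every control. In each set 1 mouse stood for a genotype, control 1934 in the first and CSF1 OE mouse 2019 in the second. These mice had the highest (0.96) and the lowest (-1.07) mean scaled level of the 50 markers of other cell types. The 2 sets thus do not separate genotype from the part of other cells. The other members did not keep 1 direction without overlap in both sets. The share of all genes tested with such a pattern was not counted, so these genes have no background to be read against. With this range of numbers as a factor in the model, Ccnd2 had a log2 fold change of -0.71 (adjusted p = 0.0424) and was called, in a fit that called 1274 genes (9.5%). Ccnd3 had -0.42 in that fit (adjusted p = 0.0425), short of the fold threshold. The same fit called 6 of 10 endothelial and mural, 4 of 10 oligodendrocyte lineage and 2 of 8 neuron and neural progenitor markers.

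Among the CDK inhibitors, the INK4 member Cdkn2c (p18) had the largest estimate. Cdkn2c was at 14.03, 8.99, 8.69 and 10.5 CPM in control mice and at 13.9, 17.1, 17.2 and 13.4 CPM in CSF1 OE mice. Control 1827 alone reached the range of the CSF1 OE mice. The means were 10.5 ± 2.45 and 15.4 ± 2.06 CPM, with a log2 fold change of 0.55 ± 0.18 (95% interval 0.13 to 0.96, unadjusted p = 0.0151, adjusted p = 0.195, edgeR). It kept its sign and an unadjusted p under 0.05 in all 16 alternatives, with log2 fold changes from 0.47 to 0.72. Cdkn2c encodes an inhibitor of CDK4 and CDK6 and is itself known as an E2F target.

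Cdkn1a (p21), the best known target of p53 and an inhibitor of CDK2 complexes, was at 118, 85.9, 148 and 87.9 CPM in control mice and at 172, 92.3, 105 and 99.7 CPM in CSF1 OE mice. CSF1 OE mouse 1931 was far above the 3 others of its group, which all lay within the control range. The log2 fold change was 0.09 ± 0.24 (95% interval -0.45 to 0.63, adjusted p = 0.863, edgeR), and without mouse 1931 it was -0.15. Cdkn1b (p27), the inhibitor that accumulates in quiescent cells, was at 56.9, 52.5, 66.6 and 57.4 CPM in control mice and at 68.2, 71.7, 55.0 and 57.1 CPM in CSF1 OE mice. The genotypes overlapped, with CSF1 OE mice 1931 and 1932 above all controls and the other 2 inside the control range. The log2 fold change of Cdkn1b was 0.11 ± 0.11 (95% interval -0.14 to 0.37, adjusted p = 0.656, edgeR), which does not reach a fold of 1.43 in either direction.

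Rb1, which encodes the pocket protein RB, was at 103.7, 95.3, 99.0 and 82.8 CPM in control mice and at 92.8, 81.7, 80.6 and 107 CPM in CSF1 OE mice. The genotypes overlapped over nearly their whole range, and the log2 fold change was -0.07 ± 0.11 (95% interval -0.33 to 0.18, adjusted p = 0.768, edgeR). Of the exon bases of Rb1, 8.11% also lie in Rcbtb2 and 6.78% in Lpar6, both on the other strand. E2f1, the activator that RB restrains, was at 22.2, 14.03, 14.96 and 21.0 CPM in control mice and at 23.3, 34.3, 28.1 and 18.5 CPM in CSF1 OE mice. CSF1 OE mice 1931, 1932 and 1936 lay above all controls, while mouse 2019 lay inside the control range. The means were 18.05 ± 4.15 and 26.1 ± 6.75 CPM, with a log2 fold change of 0.53 ± 0.22 (95% interval 0.03 to 1.03, unadjusted p = 0.0398, adjusted p = 0.275, edgeR). The sign held in all 16 alternatives, from 0.29 to 0.66, and the unadjusted p was under 0.05 in 10 of them.

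**Figure D3:**
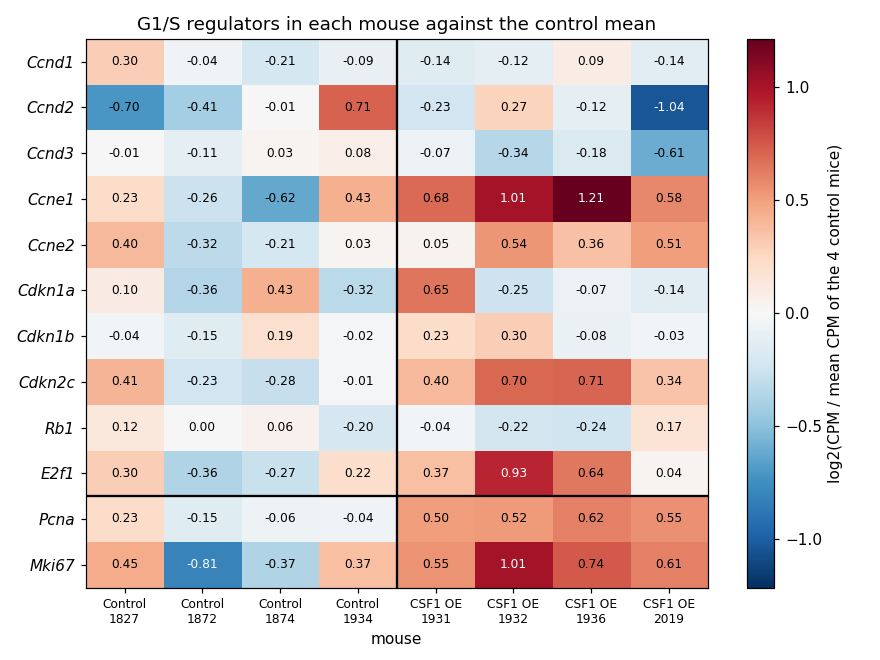
Each cell gives the log2 ratio of a mouse's CPM to the mean CPM of the 4 control mice, for the 10 genes and, below the line, Pcna and Mki67. Blue is below and red above the control mean, with control mice on the left of the vertical line, and Ccne1 runs from 0.58 to 1.21 in the CSF1 OE mice while Ccnd2 runs from -1.04 to 0.27.

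The balance between the cyclin classes was also set out per length, as sums of CPM per kb, with no test because the classes were formed from the genes already described. The D-type cyclins summed to 43.2 ± 4.33 CPM per kb in control mice and 39.8 ± 3.51 in CSF1 OE mice, of which Ccnd1 made up 73.7% ± 6.31 and 76.3% ± 4.02. The E-type cyclins summed to 3.11 ± 0.762 and 4.82 ± 0.668 CPM per kb, and the highest control (3.89) was below the lowest CSF1 OE mouse (4.01). The E-type share of D-type plus E-type cyclin RNA was 7.42%, 5.89%, 5.76% and 7.47% in the 4 control mice and 9.30%, 11.5%, 11.0% and 11.3% in the 4 CSF1 OE mice. Each CSF1 OE mouse thus had a larger E-type share than any control. The 3 inhibitors summed to 47.7 ± 9.45 and 52.6 ± 10.8 CPM per kb, with overlapping ranges, and Cdkn1a was the largest part in both groups. The ratio of E2f1 to Rb1 CPM was from 0.147 to 0.253 in controls and from 0.173 to 0.420 in CSF1 OE mice, which overlapped.

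Among the other G1 kinases and their activators, 0 of the 12 tested genes were called by edgeR with genotype alone. At an unadjusted p under 0.05, 3 were higher, namely Cdk4, Cks1b and Cks2. Of all genes tested, 10.1% were higher at that level and 6.85% were higher without overlap. Cdk4, the main partner of D-type cyclins, was at 117, 101, 94.8 and 116 CPM in control mice and at 130, 135, 142 and 121 CPM in CSF1 OE mice, without overlap (log2 fold change 0.30 ± 0.09, adjusted p = 0.172, edgeR). Cks2, a small protein that docks on CDKs, had means of 17.1 ± 1.90 and 27.8 ± 4.297 CPM, also without overlap (0.70 ± 0.14, adjusted p = 0.0558, edgeR), and is likewise among the genes listed by the study. DESeq2 called Cks2, as did edgeR with the factor for animal numbers (0.71, adjusted p = 0.0290). Cdk6, the other D-type partner, had a log2 fold change of -0.11 ± 0.13, the lowest of the list, and Cdk2, the partner of cyclin E, 0.24 ± 0.12. The median of the list was 0.24.

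Of 4 other CDK inhibitors, 0 were called by edgeR or DESeq2. Cdkn2d (p19), the INK4 relative of Cdkn2c, was higher at an unadjusted p of 0.0241, with 15.6 ± 2.36 CPM in controls and 22.6 ± 5.40 in CSF1 OE mice. Cdkn2a, which encodes p16 and ARF, had the largest estimate (1.10 ± 0.68, adjusted p = 0.447, edgeR) at a low level, with 0.295 to 2.69 CPM in controls and 1.06 to 2.79 in CSF1 OE mice. Control 1827 held the control value of 2.69 CPM, the 3 other controls were at 0.760 CPM or less, and without it the log2 fold change of Cdkn2a was 2.25 (adjusted p = 0.0738, edgeR). Controls 1874 and 1934, at 0.302 and 0.295 CPM, were near the 0.227 and 0.177 CPM that a count of 0 allows. The estimate without control 1827 thus rests in part on values near this floor. Cdkn1c (p57) had the lowest estimate, -0.30 ± 0.26, and was called with the factor for animal numbers (-0.71, adjusted p = 0.0430, edgeR). Cdkn2d was named after its value was seen, as were Cks1b, Cd163, Ly6c1, the genes named by their DESeq2 call and the other genes given by an unadjusted p below.

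**Figure D4:**
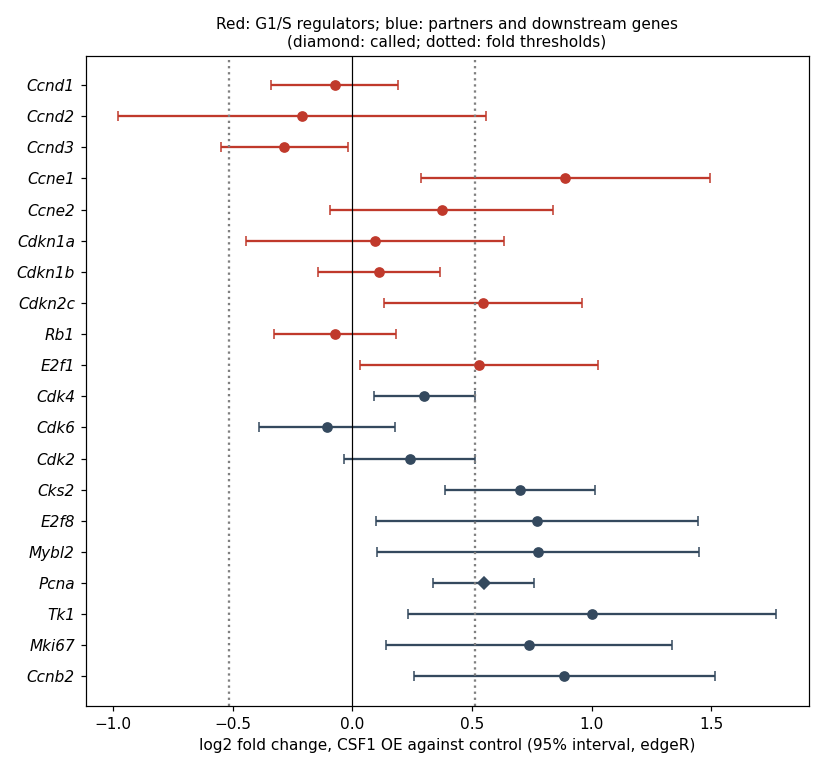
Log2 fold change of CSF1 OE against control mice (x axis) with its 95% interval from edgeR, for the 10 genes in red and for partners and downstream genes in blue. Dotted lines mark folds of 0.7 and 1.43, and the diamond marks Pcna, the called gene among those drawn, while the intervals of Ccne1, Cdkn2c and E2f1 lie above 0 and that of Ccnd3 below it.

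In the rest of the RB and E2F family, 0 of 11 genes were called by edgeR or DESeq2. At an unadjusted p under 0.05, 4 were higher, namely the pocket protein gene Rbl1, the activator E2f2, the repressor E2f8 and the dimer partner Tfdp1. For this list and the next, the share of all genes tested that were higher at that level in edgeR was 10.1%. E2f8 had the largest estimate (0.77 ± 0.30) and the pocket protein gene Rbl2 the lowest (-0.11 ± 0.15), and the median was 0.08. Of 7 MuvB and DREAM partners, the complex that pocket proteins form to repress cell cycle genes in quiescence, 0 were called by either tool and Rbbp4, Mybl2 and Foxm1 were higher at an unadjusted p under 0.05. The last 2 activate genes late in the cycle, and Mybl2 had the largest estimate (0.78 ± 0.30) while Lin37, a core subunit of MuvB, had the lowest (-0.24 ± 0.17). The turnover list of ubiquitin ligase subunits and kinases that set the stability of G1 cyclins and inhibitors had 0 of 12 genes called by either tool, 0 at an unadjusted p under 0.05 in edgeR and a median of -0.016, between Fbxo31 (-0.24 ± 0.13) and Fbxo4 (0.18 ± 0.12).

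The 24 genes downstream of E2F had higher means in CSF1 OE mice, in edgeR and in each of the 16 alternatives. The median log2 fold change of these E2F target replication genes was 0.57. Of them, 17 were at an unadjusted p under 0.05, 5 had no overlap between genotypes and 1 was called. As background, 6002 of the 13407 genes tested were higher in CSF1 OE mice. In edgeR, 10.1% of all genes tested were higher at an unadjusted p under 0.05 and 0.388% were called higher. Higher without overlap were 6.85%. The called gene was Pcna, the DNA polymerase clamp, at 193, 148, 158 and 160 CPM in control mice and at 234, 236, 252 and 242 CPM in CSF1 OE mice. No mouse of one genotype reached the other, and the log2 fold change was 0.55 ± 0.09 (adjusted p = 0.0499, edgeR). That p lies at the threshold. When 1 mouse was left out it was 0.0333 without control 1827 and from 0.0648 to 0.186 without each of the 7 others. Tk1, thymidine kinase, had the largest estimate of the list (1.0 ± 0.34, adjusted p = 0.200, edgeR), with 14.3 ± 7.59 and 28.8 ± 5.93 CPM. DESeq2 called 3 genes of the list, Pcna, Fen1 and Mcm3. Pcna and Fen1 are among the genes that the study lists from these libraries.

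Of 22 genes of G2 and mitosis, 22 had a positive log2 fold change (median 0.70), against 6002 of the 13407 genes tested. At an unadjusted p under 0.05 in edgeR there were 17, against 10.1% of all genes tested that were higher at that level. There was no overlap for 13, against 6.85% of all genes tested that were higher without overlap. Of the list, 0 were called by edgeR, while DESeq2 called 5 (Aurkb, Ccnb2, Cdk1, Cenpe and Top2a). Mki67, which encodes the proliferation marker Ki-67, was at 267, 111, 151 and 252 CPM in control mice and at 286, 395, 327 and 298 CPM in CSF1 OE mice, again without overlap (0.74 ± 0.26, adjusted p = 0.219, edgeR). Ccnb2, a mitotic cyclin, had the largest estimate (0.89 ± 0.28, adjusted p = 0.174, edgeR). Ccnb2, Cdk1, Aurkb and Cenpe are among the genes that the study lists. The lists of E2F targets and of G2 and mitosis genes were chosen with earlier results of these data known. Their counts beside the shares of all genes are thus a description and no test. Both lists had 0 genes with a lower mean in CSF1 OE mice, whereas the 10 G1/S regulators were split 6 to 4 and the D-type cyclins, Rb1 and the turnover genes stood near or below 0.

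**Figure D5:**
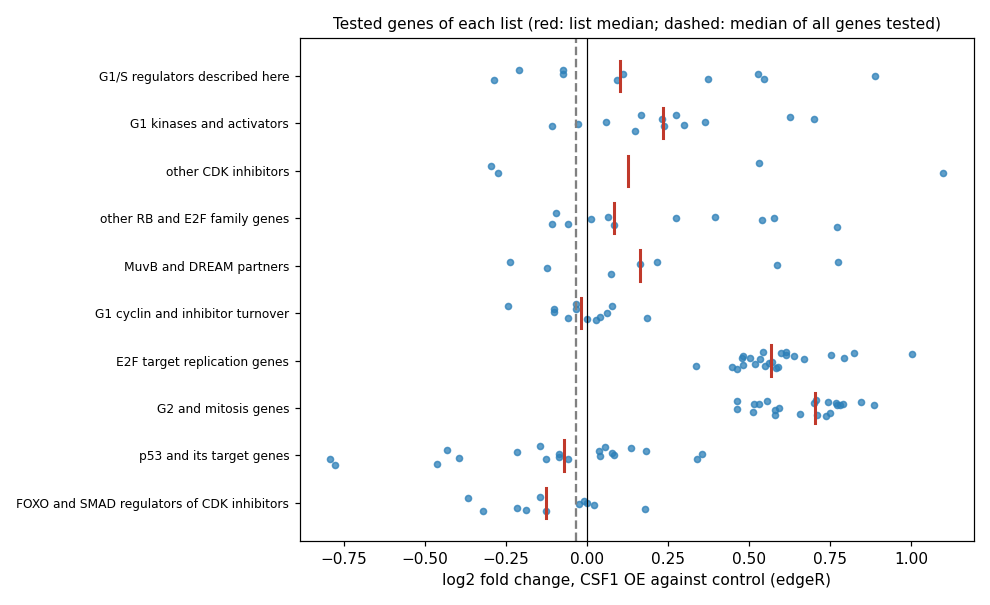
Log2 fold change of CSF1 OE against control mice for every tested gene (points) of the 10 regulators and of 9 related lists, with the list median as a red bar and the median of all genes tested (-0.034) as a dashed line. The 24 E2F target genes and the 22 genes of G2 and mitosis lie wholly to the right of 0, while the 10 regulators run from -0.28 to 0.89.

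The control mice also differed among themselves in these genes. Mice 1827 and 1934 were the 2 highest controls for Ccne1, Ccne2, Cdkn2c and E2f1, and also in 24 of 24 E2F target genes and 22 of 22 genes of G2 and mitosis. For Ccnd1, Ccnd2, Ccnd3, Cdkn1a, Cdkn1b and Rb1 this was not the case. The share of all genes tested with these 2 mice as the highest controls was not counted. The order in these lists thus has no background to be read against. Over the 8 mice, the genes outside the 10 whose log2 CPM ran most closely with that of Ccne1, the member with the lowest p, were Rfc5 (Pearson r = 0.990), Cdk4 (r = 0.988) and Nme1 (r = 0.985). These values describe 8 libraries of 2 genotypes and carry no test. Rfc5 encodes a subunit of the clamp loader that places PCNA on DNA, and Nme1 a nucleoside diphosphate kinase.

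Among genes that control CDK inhibitors from above, p53 and its targets had 0 of 20 called by edgeR or DESeq2 and 1 (Phlda3) at an unadjusted p under 0.05. In mean, 9 were higher and 11 lower, with a median of -0.07. As background, 7405 of the 13407 genes tested were lower, and 6.44% were lower at an unadjusted p under 0.05 in edgeR. Trp53 itself had 68.1 ± 3.72 CPM in controls and 72.3 ± 15.8 in CSF1 OE mice (0.09 ± 0.15, adjusted p = 0.790, edgeR). Phlda3, a p53 target that dampens AKT signalling, was the lowest (-0.79 ± 0.30, unadjusted p = 0.0268, and called with the factor for animal numbers at -1.14, adjusted p = 0.0331, edgeR) and Eda2r, a death receptor, the highest (0.35 ± 0.55, under 2 CPM in every mouse). Of 11 FOXO, SMAD and MYC family genes, 0 were called by either tool, 1 (Foxo1) was at an unadjusted p under 0.05, 8 were lower in mean and the median was -0.13. The same background shares apply to this list, and 3.44% of all genes tested were lower without overlap. Foxo1, a transcription factor that raises Cdkn1b, was at 40.3, 48.9, 45.4 and 42.3 CPM in control mice and at 35.1, 39.9, 31.5 and 35.1 CPM in CSF1 OE mice, without overlap (-0.32 ± 0.10, unadjusted p = 0.0110, adjusted p = 0.174, edgeR). Mxd1, a partner of MAX that opposes MYC, had the lowest estimate (-0.37 ± 0.21) and Mycn the highest (0.18 ± 0.55).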

How the data were processed

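CD11b+ cells of 4 control and 4 CSF1 OE mice were sequenced, with 1 library per mouse and nothing pooled. Per the labels' processing notes, the authors used bcl2fastq 1.8.4, Bowtie 1.0.0 and RSEM 1.2.7 with mm10, and deposited expected counts per gene, not normalized. The authors also deposited normalized values, a signal on the count scale, used here in 1 alternative. The annotation and strand setting are not given in the sources used here. RSEM shares reads between overlapping or similar genes, so expected counts need not be whole, and the kit keeps no strand.

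Expected counts were rounded and tested with edgeR 4.0.16 under R 4.3.3 (TMM, filterByExpr, glmQLFit and glmQLFTest, Benjamini-Hochberg over 13407 genes). A call needed an adjusted p below 0.05 and a fold below 0.7 or above 1.43, the folds that the study used with another tool, EBSeq, which was not run here. CPM are scaled to library totals after TMM scaling, and log2 CPM used a prior count of 2. A count of 0 allows up to 3 counts, or from 0.177 to 0.265 CPM, for counting error only. Lengths and overlaps came from GENCODE M21 (GRCm38) and upstream sequences from RefSeq.

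Alternatives were DESeq2 1.42.0, upper-quartile factors, other filters on low counts, a robust prior, limma 3.58.1 on the deposited normalized values (log2 with pseudocount 1), a factor for mice numbered 1931 to 1936, a covariate of other cell types and leaving out each mouse. On simulated data with 200 genes changed 2-fold in this comparison, edgeR recovered 58.5% with 4.88% false calls, and DESeq2 recovered 71% with 17% false. The members and lists were chosen with earlier results of these data known. From the other lists of cell cycle genes and their regulators, every gene called by edgeR with genotype alone and the genes with the largest rise and largest fall are named, together with Cdk4, Cdk6, Cdk2, Mki67, Trp53 and the 3 genes most like the member with the lowest p.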

Additional observations from a re-analysis of the deposited data

Results flagged for a closer look

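In 2 of the 20 groups of 4 mice examined, 1 mouse lay far from the 3 others of its genotype, where chance alone gives about 1 in 20. Ccnd1 was at 159.6 CPM in CSF1 OE mouse 1936, while the 3 others of that group lay between 136.2 and 138.8 CPM. The gap was 0.889 of the range of the group, above the 95% critical value of Dixon's test, and the value still lay inside the range of the control mice. Cdkn1a was at 172.3 CPM in CSF1 OE mouse 1931, while the 3 others lay between 92.3 and 104.8 CPM, with a gap of 0.843 of the range.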

How the results depend on the processing

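DESeq2 called 1 of the 10 genes (Ccne1) and the fit with a factor for mice numbered 1931 to 1936 called 1 (Ccnd2), while the other analyses called 0. At an unadjusted p under 0.05 the number ran from 2 to 4 when 1 mouse was left out, with 2 without control 1874 and 2 without CSF1 OE mouse 1932. Of the E2F targets, DESeq2 called 3, and 0 were called with upper-quartile factors, with no filter, with a robust prior or with the covariate of other cell types, and from 0 to 3 when 1 mouse was left out (3 without control 1827, 0 without each other mouse). Those at an unadjusted p under 0.05 were 5 with this factor and from 9 to 22 when 1 mouse was left out (10 without control 1872, and 9 without control 1874, CSF1 OE mouse 1932 or 1936). Of the genes of G2 and mitosis, DESeq2 called 5, and 10 were at an unadjusted p under 0.05 with this factor and from 11 to 22 when 1 mouse was left out (11 without control 1874 or CSF1 OE mouse 1932). Of all genes tested, in either direction, 32.6% were at that level with this factor and from 11.6% to 18.1% when 1 mouse was left out. The share that was higher alone was not counted in these fits. The counts for both lists under the alternatives were added after seeing the data. Of the other genes named, this factor led to calls of Cks2, Cdkn1c and Phlda3. Directions turned for Ccnd2 (0.44 with the covariate, and from -0.41 to 0.15 when 1 mouse was left out, 0.15 without control 1934), for Cdkn1c (0.076) and Trp53 (-0.085) with the covariate, and for Rb1 (0.072), Rbl2 (0.076), Eda2r (-0.37) and Mycn (-0.66) with this factor. When 1 mouse was left out, Cdkn1a ran from -0.15 (without CSF1 OE mouse 1931) to 0.28 and Ccnd1 from -0.13 to 0.042 (without control 1827). The cause of these shifts was not tested. With 4 mice a group and a common biological coefficient of variation of 0.228, the self-test on simulated counts recovered 58.5% of 2-fold changes, so smaller differences may go uncalled. No paired analysis was made, because the sources used here give no litter or other pairing of the mice.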
